A study of Homo sapiens with 6 samples.

Results

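ELF4 and 9 further genes of ETS transcription factors were followed after ELF4 siRNA in BE-(2)-C, a MYCN-amplified line of human neuroblastoma cells. The 10 genes (ELF4, ELF1, ELF2, ELK1, ELK3, ELK4, ETV4, ETV5, ETS2 and GABPA) were taken by exact name from a table of 26906 rows, and all 10 had a row. Cells received either ELF4 siRNA or control siRNA for 48 hours, with 3 libraries of polyA-selected RNA in each of the 2 groups, and the groups share the cell line, its medium and treatment with an siRNA. The labels name neither the siRNA sequences nor the target of the control siRNA. They speak of triplicates without saying whether these were separate cultures. A p-value here sets the difference between the groups against the spread of these libraries only, a spread that may be technical.

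ETS factors share a DNA-binding domain that recognises sites with the core letters GGAA, so that many family members can occupy the same sites. ELF4, ELF1 and ELF2 form a subgroup known best from blood cells, and the series title ties ELF4 to the microRNA miR-124 and to the growth of neuroblastoma. ELK1, ELK3 and ELK4 are the ternary complex factors, which bind DNA beside the serum response factor SRF and are switched by ERK kinases. ETV4 and ETV5 belong to the PEA3 group that acts downstream of receptor tyrosine kinases, ETS2 is an ERK-responsive proto-oncogene, and GABPA is the DNA-binding subunit of GABP, a factor known for genes of mitochondrial respiration.

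The libraries held 23148635 to 38097986 reads. Values are the deposited normalised read counts, that is, reads after division by each library's size factor, and changes are log2 fold changes (ELF4 siRNA over control siRNA) from limma on log2(value + 1), a scale that understates changes of genes with few reads. A gene is said to have risen or fallen when its Benjamini-Hochberg adjusted p, taken over all 20339 tested genes, was at most 0.05. All 8 adrenergic neuroblastoma markers, among them TH, DBH, HAND2 and MYCN, had a row and were tested. Their summed value was 113840 to 123772 after ELF4 siRNA and 119752 to 127236 after control siRNA. MYCN dominates this sum, with a mean of 70994.5 after ELF4 siRNA and 78443.4 after control siRNA. HAND2 rose (log2 fold change 0.44, limma adjusted p = 1.01e-06), DBH (-0.17), ISL1 (-0.16) and MYCN (-0.14) fell, and 4 missed the threshold. None of these falls was called in limma without the trend or under upper quartile scaling. Over all tested genes, 45.1% passed the test. Of 10 blood and endothelial markers, 4 had a row in the table used here, and the summed value of these was 50.7 to 64.0 after ELF4 siRNA and 66.6 to 80.1 after control siRNA. Of these 4, CD14 fell (log2 fold change -1.24, limma adjusted p = 0.000152), PTPRC rose (1.06, limma adjusted p = 0.00275), TIE1 did not pass, and CDH5 was too low to be tested, so the sum hides moves in both directions. The 8 Schwann and fibroblast markers all had a row, with a summed value of 3084 to 3255 after ELF4 siRNA and 3351 to 3438 after control siRNA. Of the 5 tested, PDGFRB fell by 1.19 on the log2 scale, while DCN (0.83), COL1A1 (0.48) and S100B (0.51) rose, with a median log2 fold change of 0.48, against the direction of the sum. The part of any such cells in the results below was not tested. In bulk RNA, fewer cells that express a gene and less RNA per cell cannot be told apart.

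After ELF4 siRNA, 6 of the 10 ETS genes fell, 1 rose and 3 did not pass the test. Besides ELF4 itself, the 3 ternary complex factor genes, ETV4 and GABPA fell, with means that dropped by 21.9% to 28.0% relative to control siRNA, while ETS2 rose. Changes were widespread in these cells, since 45.1% of all tested genes passed the test (24.4% of tested genes fell and 20.7% rose), and the members' count has to be read against that. Rises made up 46.0% of these calls, and 58.2% under upper quartile scaling. The median log2 fold change was -0.37 over the 10 genes, -0.36 over the 9 without ELF4 and 0.00 over all tested genes. In 8 of the 10 genes the groups did not overlap, as in 53.6% of all tested genes. All 10 passed the filter on low values, and ELF4 passed it through the control libraries alone.

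**Figure D1:**
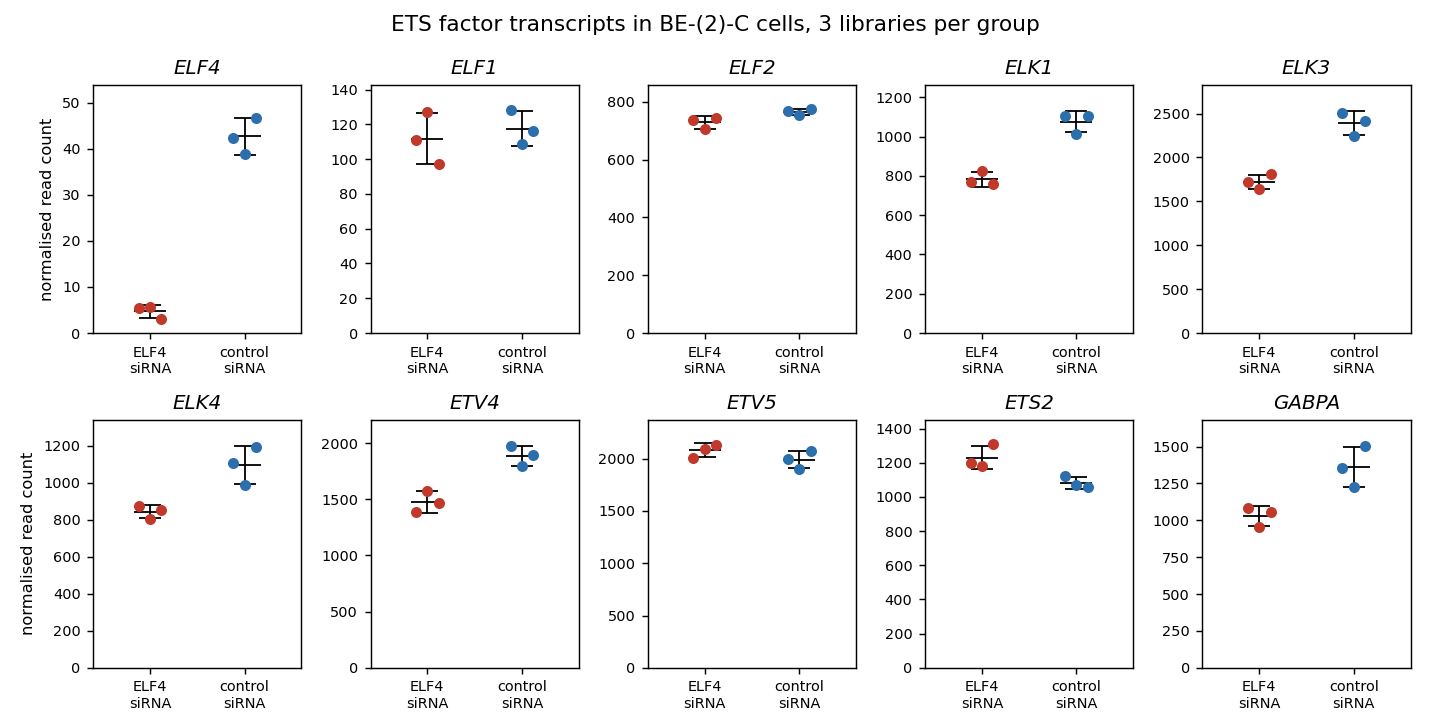
Normalised read count (vertical axis, from 0) of the 10 ETS genes in each library, with ELF4 siRNA in red and control siRNA in blue; points are libraries, and the bar gives the mean ± SD of the 3 libraries. ELF4 lies at 3.10 to 5.61 after ELF4 siRNA and at 38.8 to 46.8 after control siRNA, whereas the values of ELF1 overlap between the groups.

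ELF4 was the targeted gene and fell. It passed the filter on low values through the control libraries alone, so its rank and p-values below serve only as a check on the target. Its normalised read count was 5.51, 5.61 and 3.10 in ELF4 siRNA replicates 1, 2 and 3, against 42.4, 38.8 and 46.8 in control siRNA replicates 1, 2 and 3. Every ELF4 siRNA library lay far below every control library. The change, -2.96 on the log2 scale (SE 0.25, limma adjusted p = 5.38e-07), was the lowest of all 20339 tested genes, and an exact two-sided permutation test of the 6 values gave p = 0.1, the smallest that this permutation test can give here. The values rest on 13 reads in the ELF4 siRNA libraries together and 145 in the control libraries, so that the remaining level, 10.9% of control from the pooled reads, has an exact 95% binomial interval of 5.65% to 19.2%, which covers counting error only.

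ELF4 RNA was also scarce in the control libraries. Per kb of exon, its values were 0.719 to 1.30 normalised reads after ELF4 siRNA and averaged 9.88 ± 0.92 after control siRNA (SD, n = 3). In the control libraries this level ranked 16 of the 19 ETS family genes with a row, below all 9 other members. ETV3L, with 8.33 ± 1.06, and ETV2, with 8.29 ± 2.30 normalised reads per kb in control libraries, were its neighbours from below, and their ranges overlapped with that of ELF4. The gap to the next gene above, ELF1 at 33.0 ± 2.77 in control libraries, was larger than the spread between libraries.

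**Figure D2:**
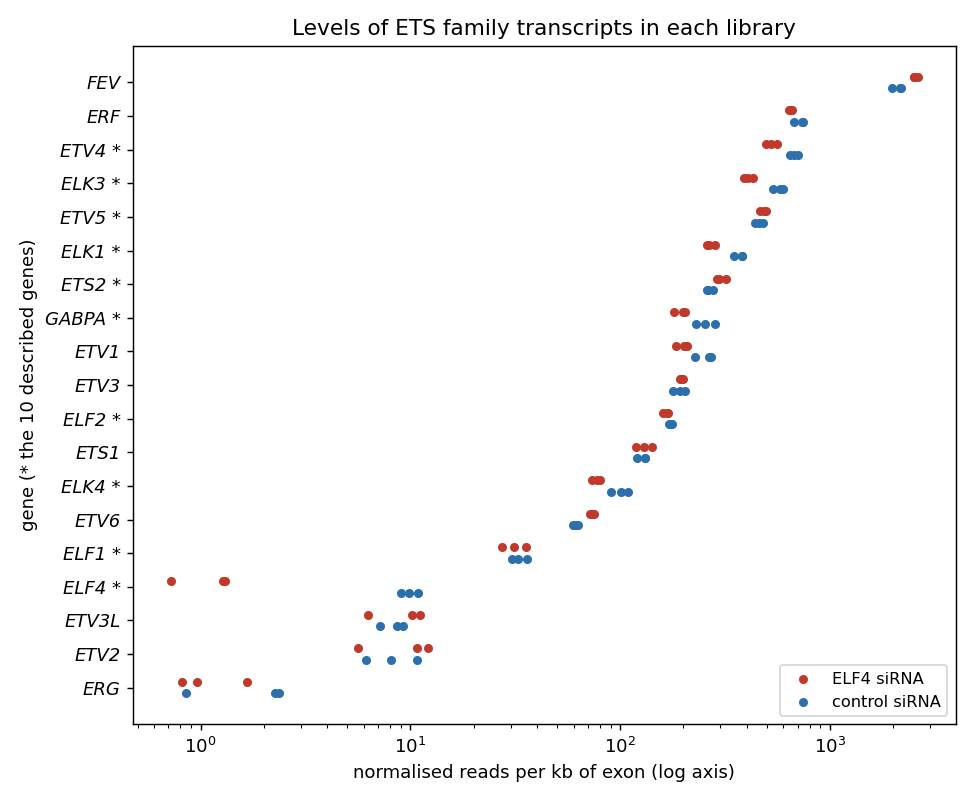
Normalised reads per kb of exon on a log axis for the 19 ETS family genes with a row, ordered by the control mean; each point is 1 library, ELF4 siRNA in red above control siRNA in blue, and stars mark the 10 described genes. Control levels span from 1.83 for ERG to 2104 for FEV, and ELF4 stands at 9.88 among the lowest.

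The closest relatives of ELF4 did not pass the test. ELF1, an activator best known from lymphocytes, had normalised read counts of 111, 127 and 97.3 in ELF4 siRNA replicates 1, 2 and 3, against 128, 109 and 116 in the control replicates, and the groups overlapped. Its log2 fold change was -0.08 with a 95% interval of -0.33 to 0.17 (limma adjusted p = 0.623). ELF2, also called NERF, had 737, 705 and 745 in the ELF4 siRNA libraries, against 768, 754 and 776 in the control libraries. All 3 ELF4 siRNA values of ELF2 lay below the control values, but the log2 fold change of -0.07 (95% interval -0.18 to 0.04) did not pass (limma adjusted p = 0.290). The intervals leave room for a fall of ELF1 of up to 0.33 on the log2 scale, and for ELF2 of up to 0.18.

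Within this subgroup ELF2 supplied most of the RNA in either group. Per kb of exon, ELF2 made up 83.6% ± 2.27 of the sum of ELF1, ELF2 and ELF4 after ELF4 siRNA and 80.2% ± 1.03 after control siRNA. ELF1 made up 15.9% ± 2.13 after ELF4 siRNA and 15.2% ± 0.99 after control siRNA, so its share overlapped between the groups. ELF4 made up 0.56% ± 0.17 after ELF4 siRNA and 4.56% ± 0.34 after control siRNA (SD, n = 3 each). The summed level of the subgroup was 197 to 199 normalised reads per kb after ELF4 siRNA and 210 to 220 after control siRNA.

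All 3 ternary complex factor genes fell. ELK1, a nuclear target of ERK that activates immediate early genes, had normalised read counts of 767, 825 and 757 in ELF4 siRNA replicates 1, 2 and 3, against 1107, 1016 and 1106 in the control replicates. ELK1 RNA was thus lower in every ELF4 siRNA library than in any control library, and the log2 fold change was -0.46 (limma, SE 0.06, adjusted p = 1.55e-05). ELK3, also called Net, which represses transcription until ERK phosphorylates it, had 1715, 1641 and 1808 in the ELF4 siRNA libraries, against 2509, 2245 and 2416 in the control libraries. The groups did not overlap for ELK3 either, and its change, -0.47 on the log2 scale (SE 0.05, limma adjusted p = 6.15e-06), was the lowest among the members after ELF4.

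ELK4, also called SAP-1, is the third factor that partners with SRF, and it had 872, 806 and 851 normalised reads in ELF4 siRNA replicates 1, 2 and 3, against 1103, 989 and 1194 in the control replicates. The lowest control library stayed above the highest ELF4 siRNA library, and the log2 fold change was -0.37 (SE 0.07, limma adjusted p = 0.000356). The 3 genes fell by similar amounts, so their proportions moved little. Per kb of exon, ELK3 made up 54.1% ± 1.90 of their sum after ELF4 siRNA and 54.7% ± 0.68 after control siRNA, and ELK1 made up 35.7% ± 2.09 after ELF4 siRNA and 35.7% ± 0.30 after control siRNA. The summed level was 748 to 768 normalised reads per kb after ELF4 siRNA and 974 to 1079 after control siRNA.

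ELK4 and GABPA, which both fell, also share a promoter feature that the choice of genes did not use. RefSeq promoter windows on GRCh38.p14, running from 250 bases before to 50 after an annotated start, were at hand for 8 of the 10 genes and were searched for CCGGAAG, an ETS core with its flanks, and on the opposite strand for its reverse complement CTTCCGG. Only ELK4 and GABPA held it. It was in 10.3% of all 35116 windows and, counting genes with any window, in 21.0% of tested genes, 24.2% of those that fell and 18.1% of those that rose, so a match in 2 of 8 genes is close to the background. The windows are shown because they are the only ones among the members with the motif, which stands in capitals. The ELK4 window is chr1:205631962-205632261 on the minus strand, with the motif beginning 22 bases before the start. The GABPA window is chr21:25734722-25735021 on the plus strand, with the motif beginning 66 bases before the start. A match describes these letters and shows no binding.
ELK4: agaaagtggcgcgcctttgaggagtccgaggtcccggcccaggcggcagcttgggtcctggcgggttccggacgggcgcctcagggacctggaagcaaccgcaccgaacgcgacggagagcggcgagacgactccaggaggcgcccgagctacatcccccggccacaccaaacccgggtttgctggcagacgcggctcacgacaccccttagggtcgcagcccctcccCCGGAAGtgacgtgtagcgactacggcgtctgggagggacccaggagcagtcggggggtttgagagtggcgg
GABPA: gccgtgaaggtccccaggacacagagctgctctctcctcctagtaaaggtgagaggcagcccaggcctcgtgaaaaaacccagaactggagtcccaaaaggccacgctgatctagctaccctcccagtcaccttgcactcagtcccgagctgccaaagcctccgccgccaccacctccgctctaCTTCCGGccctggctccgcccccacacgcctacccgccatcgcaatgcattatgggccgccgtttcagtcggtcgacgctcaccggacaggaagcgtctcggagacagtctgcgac

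GABPA fell together with its partner subunit. GABPA had 1084, 955 and 1054 normalised reads in ELF4 siRNA replicates 1, 2 and 3, against 1353, 1227 and 1502 in the control replicates. The groups did not overlap, although the control libraries spread more than for most members, with a coefficient of variation of 10.1%, and the log2 fold change was -0.40 (SE 0.07, limma adjusted p = 0.000378). GABPB1, which encodes the beta subunit that carries the transactivation domain of GABP, averaged 845 ± 31.2 after ELF4 siRNA and 1232 ± 18.6 after control siRNA (SD, n = 3 each; log2 fold change -0.54, limma adjusted p = 1.01e-06). The alternative beta subunit gene GABPB2, named after its value was seen, averaged 224 ± 3.72 after ELF4 siRNA and 228 ± 14.1 after control siRNA and did not pass (adjusted p = 0.823). The log2 ratio of GABPA to GABPB1 was 0.24 to 0.33 after ELF4 siRNA and 0.02 to 0.27 after control siRNA, overlapping ranges. An exact two-sided permutation test gave p = 0.2 (0.2 adjusted over the 3 ratios tested). With 3 libraries per group this test cannot give less than 0.1, so it does not show that the ratio stayed the same.

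The 3′ UTRs of the members were searched for a pair of 7-mers. These were ACCTGTC and, overlapping it, CCTGTCA, which an earlier look at these data had picked for their association with low fold changes, so their presence in a gene that fell supports nothing. In the GENCODE 29 transcript with the longest coding sequence, they occurred in 2 of the 10 members (20%), close to the 17.4% of tested genes with a 3′ UTR, in 24% of those that fell and in 13.5% of those that rose. The 2 members were ELK4, with 3 sites in 8603 bases, and GABPA, with 1 site in 3228 bases, the longest 3′ UTRs among the 10, while ELF4, ELK1, ELK3 and ETV4, which also fell, carried none. The sites are printed to let them be compared, with the 7-mer or its 8-letter overlap in capitals, and their part in the falls was not tested. The ELK4 sites begin at positions 666, 966 and 7725 of its 3′ UTR and the GABPA site at position 771, counted from the base after the stop codon.
ELK4 at 666: tcctgtctgaACCTGTCAacagagcatg
ELK4 at 966: caagtgaaggACCTGTCtttttcctgt
ELK4 at 7725: ctttcttcaaACCTGTCAgctcaactga
GABPA at 771: ctctgtttttCCTGTCAgagatttaaa

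The PEA3 group was split. ETV4, also called PEA3, had 1387, 1574 and 1468 normalised reads in ELF4 siRNA replicates 1, 2 and 3, against 1978, 1799 and 1891 in the control replicates. No ELF4 siRNA library reached the control range, and ETV4 fell by 0.36 on the log2 scale (SE 0.06, limma adjusted p = 0.000116). ETV5, also called ERM, had 2005, 2097 and 2134 in the ELF4 siRNA libraries, against 1996, 1905 and 2075 in the control libraries. The ETV5 values overlapped, and its log2 fold change of 0.06 (95% interval -0.04 to 0.16) did not pass (limma adjusted p = 0.313), although it passed as a rise under upper quartile scaling (adjusted p = 0.0352). Reads that the table assigns jointly to DGKG and ETV5 numbered only 111 to 123 in the ELF4 siRNA libraries and 105 to 167 in the control libraries, and the antisense row ETV5-AS1 held at most 6 reads per library.

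The third gene of the group, ETV1, which is not among the 10, averaged 1524 ± 93.3 after ELF4 siRNA and 1959 ± 187 after control siRNA and fell (log2 fold change -0.36, limma adjusted p = 0.000556). The log2 ratio of ETV4 to ETV5 was -0.54 to -0.41 after ELF4 siRNA and -0.13 to -0.01 after control siRNA, so the ratio was lower in 3 of 3 ELF4 siRNA libraries. An exact two-sided permutation test of the ratio gave p = 0.1, the smallest possible with 3 libraries per group (0.15 adjusted over the 3 ratios tested). The ratio of ETV1 to ETV5 gave the same exact p of 0.1, with log2 ratios of -0.56 to -0.32 after ELF4 siRNA and -0.13 to 0.03 after control siRNA. Per kb of exon, ETV5 made up 39.9% ± 0.57 of the RNA of the PEA3 group after ELF4 siRNA and 33.2% ± 0.82 after control siRNA, and ETV4 43.7% ± 1.71 after ELF4 siRNA and 48.6% ± 1.08 after control siRNA (SD, n = 3 each). These shares depend on the length used. Per kb of the longest coding transcript, the control mean of ETV1 was 468.5 instead of 254, against 484.5 instead of 460 for ETV5 and 777.8 instead of 673.7 for ETV4.

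ETS2 was the only member that rose. Its normalised read count was 1201, 1183 and 1307 in ELF4 siRNA replicates 1, 2 and 3, against 1123, 1068 and 1055 in the control replicates. The groups did not overlap, but the lowest ELF4 siRNA library exceeded the highest control library by little. The log2 fold change was 0.18 (SE 0.05, limma adjusted p = 0.0116), and the call was lost in limma without the trend (adjusted p = 0.055).

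**Figure D3:**
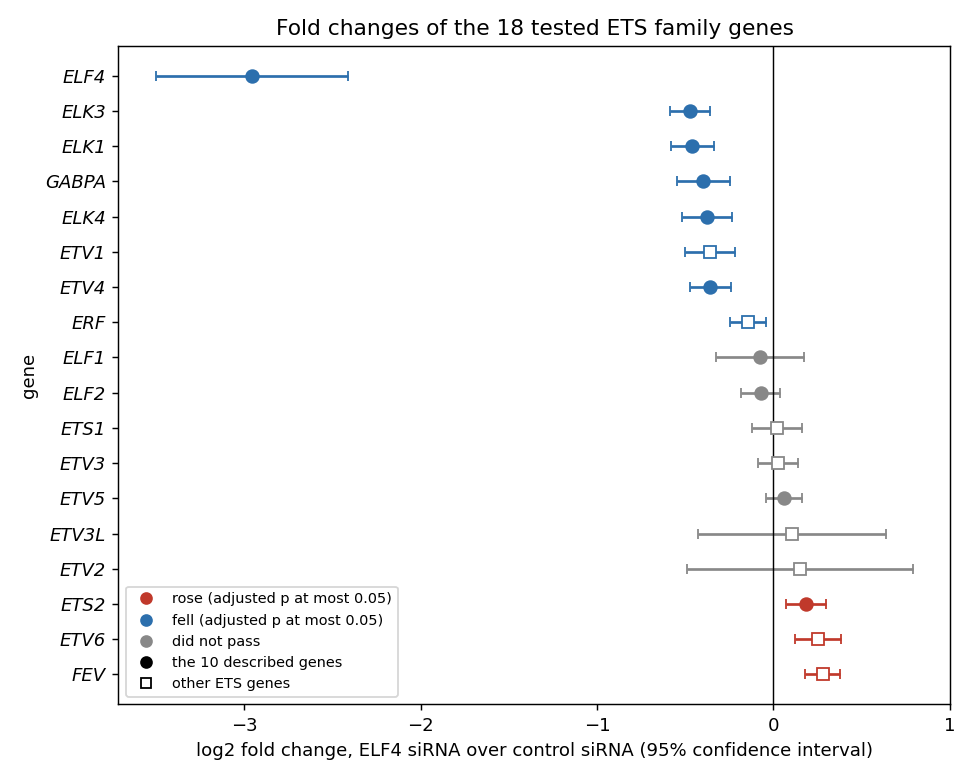
Log2 fold change (horizontal axis, ELF4 siRNA over control siRNA) with 95% confidence intervals from limma for the 18 tested ETS family genes, from the lowest at the top; filled circles are the 10 described genes, open squares other ETS genes, blue those that fell, red those that rose and grey those that did not pass. Below ELF4 at -2.96, ELK3, ELK1, GABPA, ELK4, ETV1 and ETV4 lie between -0.47 and -0.36.

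Among the other ETS family genes, 8 of the 9 with a row were tested. Their median log2 fold change was 0.07, and 2 rose, 2 fell and 4 missed the threshold. Of these 8 genes 50% passed the test, against 45.1% of all tested genes. FEV, also called PET1, a factor known from serotonergic neurons, had the highest level per kb of exon of all ETS genes and rose to 4799 ± 125 normalised reads after ELF4 siRNA, against 3954 ± 228 after control siRNA (log2 fold change 0.28, limma adjusted p = 0.000219). ETV6, also called TEL, a repressor, averaged 438 ± 9.90 after ELF4 siRNA and 368 ± 11.2 after control siRNA (0.25, limma adjusted p = 0.00394). The falls were in ETV1 and in the repressor gene ERF, named after its value was seen (-0.14, limma adjusted p = 0.0256). Of these falls 1 was left, with ETV1 still called, in limma without the trend, under upper quartile scaling, and without ELF4 siRNA replicate 1 or 3 or control siRNA replicate 1 or 3. ETS1, ETV3, ETV2 and ETV3L did not pass, and ERG was too low to be tested, at 4 to 8 reads in the ELF4 siRNA libraries and 4 to 18 in the control libraries. Over all 18 tested ETS genes, 3 rose, 8 fell and 7 missed the threshold, and the median was -0.07.

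Genes of ETS partners and regulators moved in both directions. Of 18 listed genes, all tested, 5 rose, 7 fell and 6 missed the threshold. In this list 66.7% passed the test, against 45.1% of all tested genes. The list's median log2 fold change was -0.03, beside 0.00 over all tested genes. Under upper quartile scaling it was 0.04, beside 0.06 over all tested genes. SKP2, the ubiquitin ligase subunit reported to send ELF4 to degradation, fell to 5464 ± 69.0 after ELF4 siRNA, against 8465 ± 574 after control siRNA (-0.63, limma adjusted p = 1.65e-07).

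SRF, the DNA-binding partner of the ELK proteins, moved opposite to them. It averaged 1607 ± 45.8 after ELF4 siRNA and 1352 ± 73.9 after control siRNA and rose (log2 fold change 0.25, limma adjusted p = 0.00114). SRF, like CIC, ATXN1L and ATXN1, was named after its value was seen. CIC encodes the repressor that keeps ETV1, ETV4 and ETV5 low. It rose to 4119 ± 73.3 after ELF4 siRNA, against 3571 ± 56.5 after control siRNA (0.21, limma adjusted p = 0.000587). In the same list ATXN1L (-0.305, limma adjusted p = 5.96e-05) and ATXN1 (-0.14, limma adjusted p = 0.04) fell. A part of CIC in the values of ETV1, ETV4 and ETV5 was not tested.

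Genes of the RAS, RAF, MEK and ERK cascade, which switches the ELK and PEA3 factors, included more falls than rises. Over all tested genes 24.4% fell and 20.7% rose, while under upper quartile scaling 5479 rose and 3938 fell. All 17 listed genes were tested, and 76.5% of them passed, against 45.1% of all tested genes. Of the 17, 10 fell, 3 rose and 4 missed the threshold, around a median log2 fold change of -0.15. Under upper quartile scaling this median was -0.08, beside 0.06 over all tested genes. MAP2K1, which encodes the ERK kinase MEK1, averaged 746 ± 35.1 after ELF4 siRNA and 1431 ± 38.3 after control siRNA (-0.94, limma adjusted p = 1.12e-08). GRB2, the adaptor between receptors and RAS, averaged 606 ± 56.1 after ELF4 siRNA and 1117 ± 19.6 after control siRNA (-0.88, limma adjusted p = 1.30e-07). MAP2K2, the gene of MEK2, named after its value was seen, rose to 4419 ± 228 after ELF4 siRNA, against 3529 ± 50.1 after control siRNA (0.32, limma adjusted p = 3.79e-05).

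Genes known as ERK outputs and feedback inhibitors did not share a direction. Of 16 listed genes, 15 had a row and were tested. Of these, 66.7% passed the test, against 45.1% of all tested genes. In the list 7 fell, 3 rose and 5 missed the threshold, around a median log2 fold change of -0.22. Under upper quartile scaling this median was -0.16, beside 0.06 over all tested genes. SPRED1, an inhibitor of RAS signalling, averaged 860 ± 20.7 after ELF4 siRNA and 1183 ± 71.4 after control siRNA (-0.46, limma adjusted p = 1.23e-05). SPRY2, a Sprouty inhibitor, fell by 0.32 on the log2 scale (adjusted p = 5.49e-05 in limma). DUSP4, a phosphatase of nuclear ERK, rose to 7825 ± 415 after ELF4 siRNA, against 6076 ± 116 after control siRNA (0.36, limma adjusted p = 1.12e-05). ETV1 counts in this list too.

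Of 14 listed targets of SRF and the ternary complex factors, 13 had a row and 9 were expressed highly enough to be tested. Among these 77.8% passed the test, against 45.1% of all tested genes. In the list 4 rose, 3 fell and 2 missed the threshold, and the median log2 fold change was -0.03. Under upper quartile scaling this median was 0.04, beside 0.06 over all tested genes. SRF counts in this list too, among the rises. MCL1, an antiapoptotic BCL2 relative, averaged 3702 ± 109 after ELF4 siRNA and 7030 ± 347 after control siRNA (-0.92, limma adjusted p = 3.33e-09). EGR1, a zinc finger immediate early gene, averaged 600 ± 56.1 after ELF4 siRNA and 1118 ± 20.5 after control siRNA (-0.90, limma adjusted p = 1.01e-07). JUNB, an AP-1 subunit, rose to 1883 ± 92.2 after ELF4 siRNA, against 1448 ± 42.7 after control siRNA (0.38, limma adjusted p = 2.65e-05).

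The mitochondrial genes known as GABP targets moved in both directions. All 17 listed genes were tested, of which 5 fell, 3 rose and 9 missed the threshold. The 47.1% that passed the test is close to the 45.1% of all tested genes. The list's median log2 fold change was -0.03. Under upper quartile scaling it was 0.03, beside 0.06 over all tested genes. The number of falls dropped to 3 without ELF4 siRNA replicate 2, control siRNA replicate 1 or control siRNA replicate 2, and to 2 in limma without the trend, where 1 gene rose, and under upper quartile scaling. TFAM, the packaging and transcription factor of mitochondrial DNA, averaged 1289 ± 125 after ELF4 siRNA and 1893 ± 202 after control siRNA (-0.55, limma adjusted p = 5.33e-05). SDHD, a subunit of succinate dehydrogenase, averaged 1562 ± 90.4 after ELF4 siRNA and 1916 ± 139 after control siRNA (-0.29, limma adjusted p = 0.00107). COX5A, a subunit of cytochrome c oxidase, rose by a small amount (0.14, limma adjusted p = 0.00606).

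Genes reported elsewhere as targets of ELF4 moved in both directions. Of 9 listed names, of which IL8 and CXCL8 stand for the same gene, 6 had a row and 5 were tested. Of the 5, 60% passed the test, against 45.1% of all tested genes. There were 1 rise, 2 falls and 2 genes that missed the threshold, around a median log2 fold change of 0.42. With so few genes these values were unstable, as the median was 0.27 without control siRNA replicate 2, 0.58 without control siRNA replicate 1 and -0.69 where a mean of at least 100 was required, and 2 genes rose without control siRNA replicate 1. MDM2, the ubiquitin ligase of p53, averaged 360 ± 22.7 after ELF4 siRNA and 584 ± 43.5 after control siRNA (-0.69, limma adjusted p = 3.07e-06). KLF2, a zinc finger factor of quiescent T cells, was low and rose to 59.8 ± 8.34 after ELF4 siRNA, against 18.2 ± 4.15 after control siRNA (1.68, limma adjusted p = 9.96e-06). SOX2, a stem cell factor, averaged 60.3 ± 11.2 after ELF4 siRNA and 81.5 ± 13.9 after control siRNA with overlapping values (-0.43, limma adjusted p = 0.0396). SOX2 no longer passed when ELF4 siRNA replicate 1 (limma adjusted p = 0.11) or 3 (0.146), or control siRNA replicate 1 (0.169) or 3 (0.105), was left out. It also missed the threshold in limma without the trend (adjusted p = 0.104), in limma under upper quartile scaling (0.0689) and in DESeq2 (0.103).

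**Figure D4:**
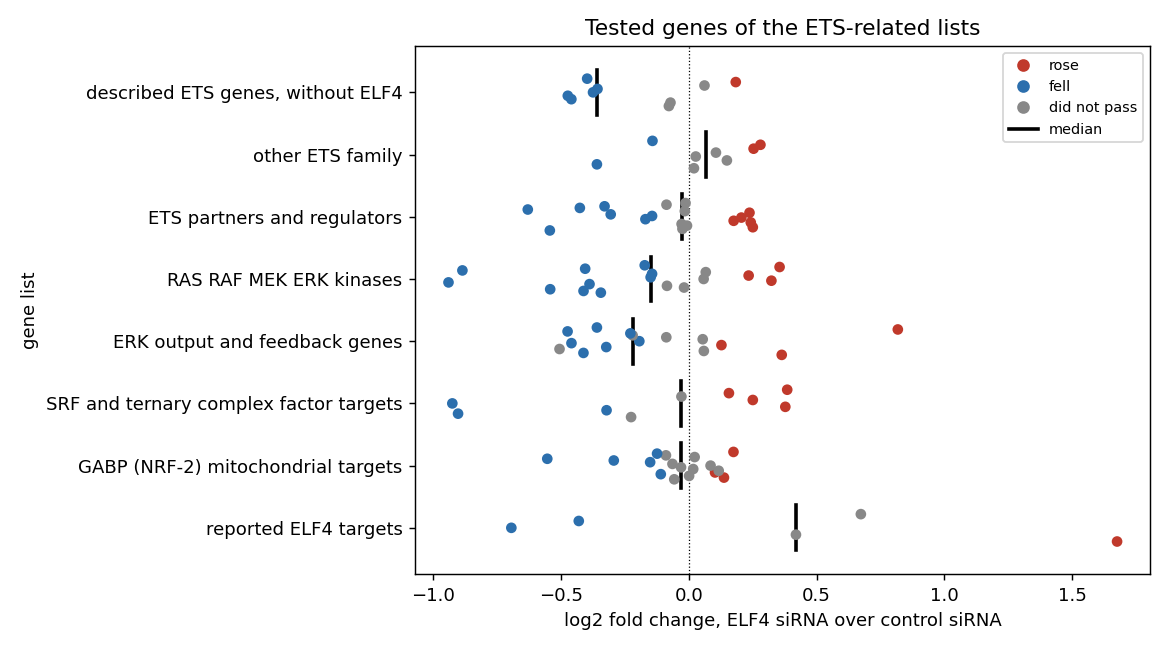
Log2 fold change (horizontal axis, ELF4 siRNA over control siRNA) of each tested gene in 8 lists (rows); red points rose, blue points fell, grey points did not pass, and the black bar is the list's median. The row of the described ETS genes leaves out ELF4 and has a median of -0.36, while the medians of the partners, the SRF targets and the GABP targets lie at -0.03.

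The genes whose values over the 6 libraries were most like those of ELF4 were AREL1, CPVL and RFWD3, with Pearson correlations of 0.9993, 0.9993 and 0.9992 among 13056 genes with a mean of at least 100. The libraries fall into 2 groups that differ widely, and 1885 genes had a correlation of at least 0.95, so many genes that differ between the groups share this likeness. AREL1, a ubiquitin ligase gene, had a log2 fold change of -0.67, CPVL, a carboxypeptidase gene, of -0.95, and RFWD3, a ubiquitin ligase gene of DNA repair, of -0.51, each smaller than that of ELF4.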

How the data were processed

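PolyA-selected RNA from BE-(2)-C cells was sequenced 48 hours after siRNA treatment. The deposited signal is a normalised read count per gene. TopHat, featureCounts, DESeq2 and hg19 are named in the submitters' processing notes, without versions, and the annotation, strand setting and filters are not stated in the sources used here. All values (100%) divided by their library's step were whole within 0.001, so whole reads were recovered. No name was blank. Joined names make up 2148 rows. Without a strand setting, antisense reads cannot be told apart.

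The 20339 genes that reached a value of 10 in at least 3 libraries entered limma (trend, no covariates) on log2(value + 1). Alternatives were other pseudocounts, filters and scalings, a replicate block, leaving out each library, limma without the trend, and count models (edgeR, DESeq2) on the recovered reads. Libraries of a group differed by more than sampling noise (chi-square per degree of freedom 2.05 to 5.78). Levels per kb use GENCODE 29 exons of coding transcripts, on another build than hg19. Shares within a group of genes depend on these lengths, and their SD covers the spread between libraries only. The steps were tested on simulated data with 100 genes changed by 0.5 and 100 by 1 on the log2 scale. Of these, 81% and 95% were called, beside 0.0696% of the unchanged genes. Far fewer genes changed there than were called here, so the simulation does not vouch for calls under widespread change.

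The members and lists were chosen with earlier results of these data known. Named were the members, up to 3 genes per list by adjusted p and 3 genes like ELF4; some of these are not reported here. Marker genes were named after their values were seen. Python 3.11.15 (numpy 2.4.6, pandas 2.3.3, scipy 1.17.1, matplotlib 3.10.9) and R 4.3.3 (DESeq2 1.42.0, edgeR 4.0.16, limma 3.58.1) were used.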

Additional observations from a re-analysis of the deposited data

How the results depend on the processing

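Among the values of the 10 ETS genes under the alternatives, 157 kept their direction where called and their side of the threshold. The 2 exceptions were ETS2 in limma without the trend (log2 fold change 0.18, adjusted p = 0.055) and ETV5 under upper quartile scaling (0.13, adjusted p = 0.0352). ELF4 was not tested where a mean of at least 100 was required. Leaving out 1 library gave log2 fold changes of -3.07 to -2.73 for ELF4, -0.50 to -0.43 for ELK1, -0.52 to -0.44 for ELK3, -0.45 to -0.31 for ELK4, -0.40 to -0.31 for ETV4, -0.47 to -0.32 for GABPA and 0.14 to 0.21 for ETS2, all still called (highest adjusted p 0.049, for ETS2). Upper quartile scaling shifted the median log2 fold change of all genes to 0.06, while each change was still tested against 0. Rises made up 58.2% of calls there (5479 rises and 3938 falls), against 46.0% in the scaling as deposited (4217 and 4956). Over all alternatives both counts stayed within 1.5 times. Of the list summaries, 380 values moved by less than the spread between libraries, or by less than 1.5 times for counts, and 52 moved by more, none of them with a test. With the replicate block ELK1 stood at -0.46, 4564 genes rose and 5346 fell, and no call of a member changed. The same-numbered libraries correlated weakly in their deviations (0.029, 0.075 and 0.041), although each of the 6 was closest to its own number, which is a hint from the data rather than the design. Depth limits ELF4, at 3 to 5 reads per ELF4 siRNA library.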
